A study of Homo sapiens with 14 samples.

Results

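The 10 genes described here were the immediate early genes EGR1, FOS, FOSB, JUN, JUNB, JUND, IER2, IER3, ATF3 and KLF6, taken by symbol from a table of read counts with 62703 gene rows. All 10 were found, each in 1 row. They are textbook members of the class, chosen by one measured result that was already known, the lower counts of EGR1 in 22Rv1 cells treated with SEL120-34A. That comparison is therefore given as a description without a test. Of the 10 genes, 8 were among the 7086 genes with enough counts to be tested in LNCaP and 22Rv1. FOSB and IER3 were not, and their counts are given instead.

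Immediate early genes are transcribed quickly after a stimulus such as serum, growth factors or stress, without new protein synthesis, and their messages are short-lived. MAP kinase signaling switches them on through phosphorylation of factors already bound at their promoters. Among these factors are the partners of serum response factor (SRF), which binds the CArG box, and CREB, which binds the cyclic AMP response element. Most of the products are transcription factors themselves: FOS and JUN proteins pair to form AP-1, and EGR1 and KLF6 are zinc finger factors. Mediator carries signals from such factors to RNA polymerase II, and CDK8 and CDK19 are the kinases of its kinase module.

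The libraries came from 3 human prostate cancer cell lines grown in serum-containing medium and exposed for 3 days to DMSO or to 1.5 µM SEL120-34A, an inhibitor of CDK8 and CDK19. LNCaP depends on androgen and is sensitive to the androgen receptor blocker enzalutamide, 22Rv1 responds to androgen but is resistant to enzalutamide, and PC3 lacks the androgen receptor. LNCaP and 22Rv1 each had 3 libraries per arm and PC3 had 1 library per arm, so nothing in PC3 was tested. RNA was counted by BRB-seq, which sequences the 3′ ends of transcripts from pooled, barcoded samples. The study's methods speak in general of biological replicates, but the labels do not say whether these libraries came from separate cultures, so p-values cover the spread between these libraries. When the medium was last changed is not given in the sources used here.

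Total counts per library lay between 246063 and 909176, and every SEL120-34A library of 22Rv1 held fewer counts than every DMSO library of that line. Levels below are CPM, counts scaled to an effective library size with TMM (trimmed mean of M-values), and 3 counts, taken as the floor of detection, corresponded to 3.27 to 12.9 CPM. Intervals on counts cover counting error only. As a check of the labels, VIM, the mesenchymal filament gene, was at 29.1 ± 16.5 (SD, n = 3) and 21.4 ± 4.37 CPM (SD, n = 3) in LNCaP and 22Rv1 DMSO and at 1262 CPM in PC3 DMSO. VIM was not called between LNCaP and 22Rv1 and so set only PC3 apart. Of 4 tested genes of the PC3 marker list, 3 were called lower in LNCaP than in 22Rv1 (edgeR). All 5 luminal prostate genes taken as markers of LNCaP were called higher in LNCaP DMSO than in 22Rv1 DMSO (edgeR), beside 24.0% of all tested genes. SEL120-34A blocks a kinase and not its transcription, so the transcripts of its targets do not check the treatment labels. The study reports lower secretion of prostate-specific antigen with the inhibitor in both lines that have the androgen receptor. KLK3, the gene of this antigen, and KLK2 were called lower with SEL120-34A in LNCaP (edgeR). Neither was called in 22Rv1, so these genes checked the treatment labels of LNCaP only. Of the 5 kinase module genes 3 were tested, and none passed the threshold with SEL120-34A in LNCaP (edgeR quasi-likelihood test; 1 of 3 at an unadjusted p under 0.05).

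The promoters of EGR1, FOS and JUND are printed because edgeR called these genes in different comparisons. EGR1 was called between the lines and with SEL120-34A in 22Rv1, FOS between the lines only, and JUND in neither. The fall of EGR1 with SEL120-34A chose the gene and is a description, and DESeq2 and limma-trend did not call it. Any link between promoter matches and levels was not tested. Each run is the 250 bases before the start site on the gene's strand, 5′ to 3′, from the RefSeq promoter table (GRCh38.p14), with matches in capitals. The EGR1 run is chr5:138465229-138465478 (plus strand), the FOS run chr14:75278578-75278827 (plus strand) and the JUND run chr19:18281623-18281872 (minus strand).
EGR1: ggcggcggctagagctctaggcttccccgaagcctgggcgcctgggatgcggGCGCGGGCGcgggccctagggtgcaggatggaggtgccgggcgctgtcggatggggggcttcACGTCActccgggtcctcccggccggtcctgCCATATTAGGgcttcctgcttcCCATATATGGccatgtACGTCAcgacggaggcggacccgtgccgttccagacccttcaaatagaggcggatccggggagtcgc
FOS: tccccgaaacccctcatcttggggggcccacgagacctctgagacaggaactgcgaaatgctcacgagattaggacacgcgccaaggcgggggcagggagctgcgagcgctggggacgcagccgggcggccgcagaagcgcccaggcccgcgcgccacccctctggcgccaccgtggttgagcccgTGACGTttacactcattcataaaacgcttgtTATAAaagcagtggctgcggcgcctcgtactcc
JUND: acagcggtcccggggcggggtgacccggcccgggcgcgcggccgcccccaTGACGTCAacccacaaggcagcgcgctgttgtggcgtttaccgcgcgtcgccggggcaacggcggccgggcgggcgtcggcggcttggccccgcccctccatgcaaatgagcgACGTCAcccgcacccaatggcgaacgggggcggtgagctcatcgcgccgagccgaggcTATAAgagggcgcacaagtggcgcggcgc

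The table held 9 of the 10 genes, all but IER3, with 2 entries for ATF3, among 35116 promoters of 250 bases before and 50 bases after a start site. The CArG box, the site of SRF, was found in 1.29% of all promoters. Among these genes it was found within this window only in EGR1, at 105 and at 83 bases before the start. Sites further upstream were not searched for any gene, so a missing match does not mean that a gene lacks the site. The half-site form of the cyclic AMP response element, TGACGT on either strand, was found in 7.98% of all promoters and in EGR1, FOS, FOSB and JUND. Its full form TGACGTCA, which contains the half-site on both strands, was found in 1.85% and here in JUND, 200 bases before the start. The EGR motif GCGNGGGCG, searched on both strands, was found in 9.43% of promoters and here in EGR1 itself and in KLF6. TATAA on the gene's strand was found in 14.8% and here 29 to 33 bases before the start of FOS, FOSB, JUNB and JUND and further upstream at 1 ATF3 entry. The AP-1 motif, TGACTCA or TGAGTCA, was found in 4.95% of promoters and in none of the 9 genes within this window. These are matches of letters, not measured binding.

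Without inhibitor, FOS, IER2 and JUNB were at lower levels in LNCaP than in 22Rv1, as was EGR1, while JUN, JUND and ATF3 did not pass the threshold. Between LNCaP DMSO and 22Rv1 DMSO, 5 of the 8 tested genes passed the threshold (edgeR quasi-likelihood test, Benjamini-Hochberg adjusted p under 0.05), beside 49.0% of all tested genes. EGR1, FOS, IER2 and JUNB were lower in LNCaP, with no overlap between the 3 libraries of each line, and KLF6 was higher with overlap. Such separation was common, since 2048 of the 7086 tested genes were lower and 1952 higher in LNCaP without overlap. EGR1 is given as a description here too, since its 22Rv1 DMSO libraries took part in its choice. Over all tested genes 25.0% were lower and 24.0% higher, 1772 and 1701 genes, and scaling by library totals without TMM gave 2362 and 1211. The median log2 fold change was −0.91 over the 8 genes and −0.03 over all tested genes. In bulk libraries, fewer cells expressing a gene and less RNA per cell cannot be told apart.

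With SEL120-34A in LNCaP, 0 of the 8 genes passed the threshold in edgeR's test and 0 had an unadjusted p under 0.05, beside 2.77% of all tested genes past the threshold. DESeq2, which gave an adjusted p for 6 of the 8, and limma-trend also called 0. The median log2 fold change was 0.14 over the 8 genes. In 22Rv1 the count was 1 of 8, EGR1 itself, where 5.70% of all tested genes were called in either direction and 1.55% lower. EGR1 was chosen on this comparison, so nothing is read from that count. The median log2 fold change of the 8 was −0.17. Scaling by library totals without TMM turned the split of all calls from 294 higher and 110 lower to 144 and 231 in 22Rv1, and from 141 and 55 to 99 and 90 in LNCaP. The difference of the responses, LNCaP minus 22Rv1, was past the edgeR threshold for 0 of 8, beside 0.734% of all tested genes. At an unadjusted p under 0.05 that count was 0 in edgeR and DESeq2 and 1 in limma-trend.

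**Figure D1:**
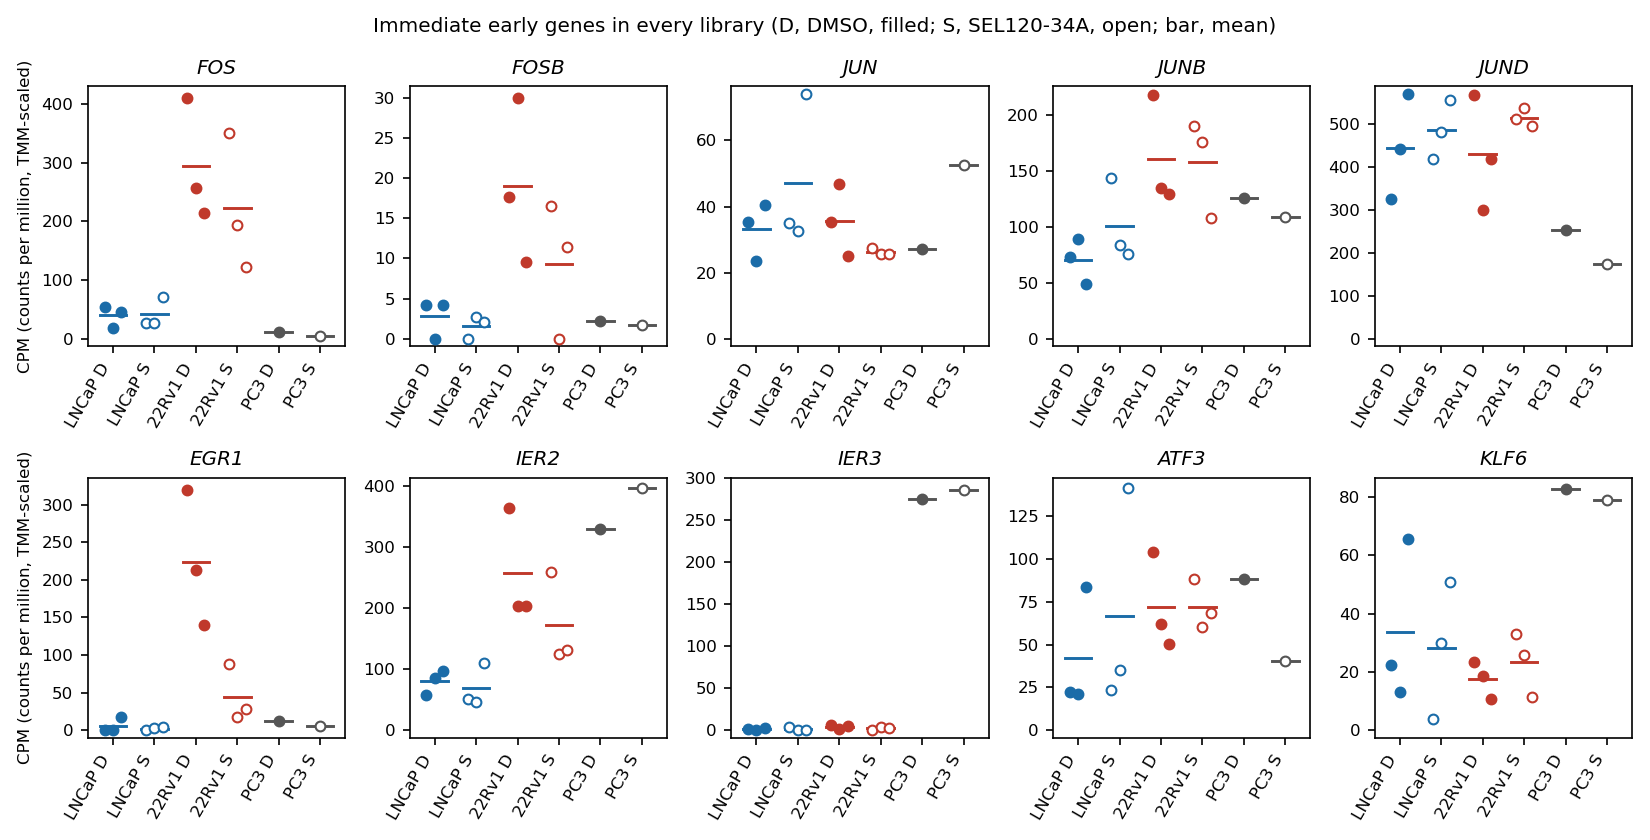
Each panel gives the level of 1 gene in CPM (vertical axis) in every library of the 6 groups, with DMSO filled, SEL120-34A open and a bar at the mean. EGR1, FOS, IER2 and JUNB were lower in all 3 LNCaP DMSO than in all 3 22Rv1 DMSO libraries, EGR1 was lower in all 3 SEL120-34A than in all 3 DMSO libraries of 22Rv1, and IER3 was high in both PC3 libraries. Of all 7086 tested genes, 2048 were lower in this way between the lines and 746 with SEL120-34A in 22Rv1. The 22Rv1 values of EGR1 took part in its choice and are a description.

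EGR1 (ENSG00000120738.8, chromosome 5, 138465479 to 138469303, plus strand, 2 exons) encodes a zinc finger factor induced by growth factors. In 22Rv1 DMSO it had 163, 114 and 117 counts, or 320.0, 213 and 140 CPM. In 22Rv1 SEL120-34A it had 32, 4 and 10 counts, or 88.2, 17.2 and 28.5 CPM. The arms did not overlap, although the highest SEL120-34A library was 5.14-fold above the lowest, and the fitted log2 fold change was −2.17 ± 0.35 (SE). The log2 fold changes estimated by DESeq2 and limma-trend were −2.30 and −2.44, and EGR1 did not pass the threshold in either of them. These values chose the gene and are given as a description.

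In LNCaP, EGR1 was near the limit of detection. The LNCaP DMSO libraries had 0, 0 and 13 counts and the LNCaP SEL120-34A libraries 0, 1 and 2 counts, so a single DMSO library carried all counts of its arm. The ratio of summed counts, SEL120-34A to DMSO, was 0.379 (exact 95% interval 0.0694 to 1.38, counting error only), and no fitted fold change is given. Against 22Rv1 DMSO, the summed LNCaP DMSO level was 0.0344 times as high (exact 95% interval 0.0181 to 0.0595). PC3 had 11 counts with DMSO and 3 with SEL120-34A, a ratio of 0.439 (exact 95% interval 0.0787 to 1.66). The order of EGR1 levels in DMSO was thus 22Rv1 far above PC3 and LNCaP, and PC3 and LNCaP differed by less than counting error (ratio 1.66, exact 95% interval 0.675 to 4.03).

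FOS (ENSG00000170345.10, chromosome 14, 75278826 to 75282230, plus strand, 4 exons) encodes the partner that JUN proteins need for the classical AP-1 dimer. In 22Rv1 DMSO it was at 410.3, 256 and 215 CPM, from 209, 137 and 180 counts. In LNCaP DMSO it was at 54.9, 18.3 and 46.1 CPM, from 39, 7 and 33 counts. Every LNCaP library lay below every 22Rv1 library, and the log2 fold change, LNCaP against 22Rv1, was −2.74 ± 0.28 (SE; edgeR quasi-likelihood test, adjusted p = 1.17e-10). All 20 alternative settings that gave a value left this call in place, with log2 fold changes from −3.27 to −2.45.

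With SEL120-34A, the FOS levels overlapped with those of the DMSO libraries in both lines. The LNCaP SEL120-34A libraries were at 27.3, 27.1 and 71.8 CPM, the last above every DMSO library, and the log2 fold change was 0.11 with a 95% interval from −0.71 to 0.94 (edgeR, adjusted p = 0.946). The 22Rv1 SEL120-34A libraries were at 350.0, 193 and 123 CPM, the last 2 below every DMSO library, with a log2 fold change of −0.35 ± 0.24 (SE). In PC3, FOS had the same counts as EGR1, 11 with DMSO and 3 with SEL120-34A. Its order in DMSO was 22Rv1 above LNCaP, with the single PC3 library at 11.98 CPM below the lowest LNCaP library.

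FOSB (ENSG00000125740.14, chromosome 19, 45467995 to 45475179, plus strand, 4 exons), a second FOS family gene, was sparse and lies within ERCC1 on the opposite strand. The 22Rv1 DMSO libraries held 9, 16 and 8 counts and the 22Rv1 SEL120-34A libraries 6, 0 and 4. LNCaP held 3, 0 and 3 counts with DMSO and 0, 1 and 1 with SEL120-34A, and PC3 held 2 and 1. On summed counts, LNCaP DMSO was 0.189 times as high as 22Rv1 DMSO (exact 95% interval 0.0649 to 0.458), while 22Rv1 SEL120-34A was 0.603 times as high as its DMSO arm (exact 95% interval 0.265 to 1.25), an interval that includes no change. Whether the counting used strand is not given in the sources used here, so reads of a gene and of an antisense neighbour could not be told apart. That applies as well to JUNB, which lies within HOOK2, and to IER2 and IER3, each overlapped by 2 antisense noncoding genes.

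The JUN family divided by member. JUNB (ENSG00000171223.6, chromosome 19, 12791486 to 12793315, plus strand, 1 exon), an AP-1 subunit that often acts against JUN, was at 73.2, 89.0 and 48.9 CPM in LNCaP DMSO and at 218, 135 and 130.0 CPM in 22Rv1 DMSO. The lines did not overlap, with a log2 fold change of −1.22 ± 0.23 (SE; edgeR, adjusted p = 2.45e-05). JUN (ENSG00000177606.8, chromosome 1, 58776845 to 58784048, minus strand, 1 exon), the transactivating subunit, was at 35.2, 23.6 and 40.5 CPM in LNCaP DMSO and at 35.3, 46.8 and 25.0 CPM in 22Rv1 DMSO. Its log2 fold change was 0.01 with a 95% interval from −0.58 to 0.59 (edgeR, adjusted p = 0.991). JUND (ENSG00000130522.6, chromosome 19, 18279694 to 18281622, minus strand, 1 exon), the member that resting cells also express, was at 325, 440 and 568 CPM in LNCaP DMSO and 567, 299 and 419 CPM in 22Rv1 DMSO. The log2 fold change was 0.06 with a 95% interval from −0.27 to 0.39 (edgeR, adjusted p = 0.781).

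With SEL120-34A in LNCaP, all 3 JUN family genes had fold changes above 0 and none passed the threshold. JUNB was at 144, 84.0 and 76.0 CPM, and its log2 fold change of 0.54 had a 95% interval from −0.0030 to 1.07 (edgeR, adjusted p = 0.374). JUN was at 35.1, 32.5 and 73.9 CPM, with a log2 fold change of 0.56 and a 95% interval from −0.07 to 1.19 (edgeR, adjusted p = 0.443). For each, 1 library was well above the other 2, replicate 1 for JUNB and replicate 3 for JUN. JUND was at 417, 480 and 555 CPM, with a log2 fold change of 0.17 and a 95% interval from −0.18 to 0.51 (edgeR, adjusted p = 0.745). Without DMSO replicate 1 the JUND log2 fold change was −0.02.

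In 22Rv1 the SEL120-34A arm overlapped with DMSO for all 3 JUN family genes. JUN was at 27.6, 25.8 and 25.7 CPM, JUNB at 190.2, 176 and 108 CPM and JUND at 509.9, 537 and 493 CPM. The log2 fold changes were −0.37 ± 0.37 (SE) for JUN, 0.00 ± 0.22 (SE) for JUNB and 0.27 ± 0.17 (SE) for JUND. In PC3, JUN had 25 counts with DMSO and 30 with SEL120-34A in a shallower library, a ratio of 1.93 (exact 95% interval 1.10 to 3.43, counting error only). JUND had 232 and 99 counts, a ratio of 0.687 (0.538 to 0.873), and JUNB 116 and 62, a ratio of 0.861 (0.622 to 1.18).

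**Figure D2:**
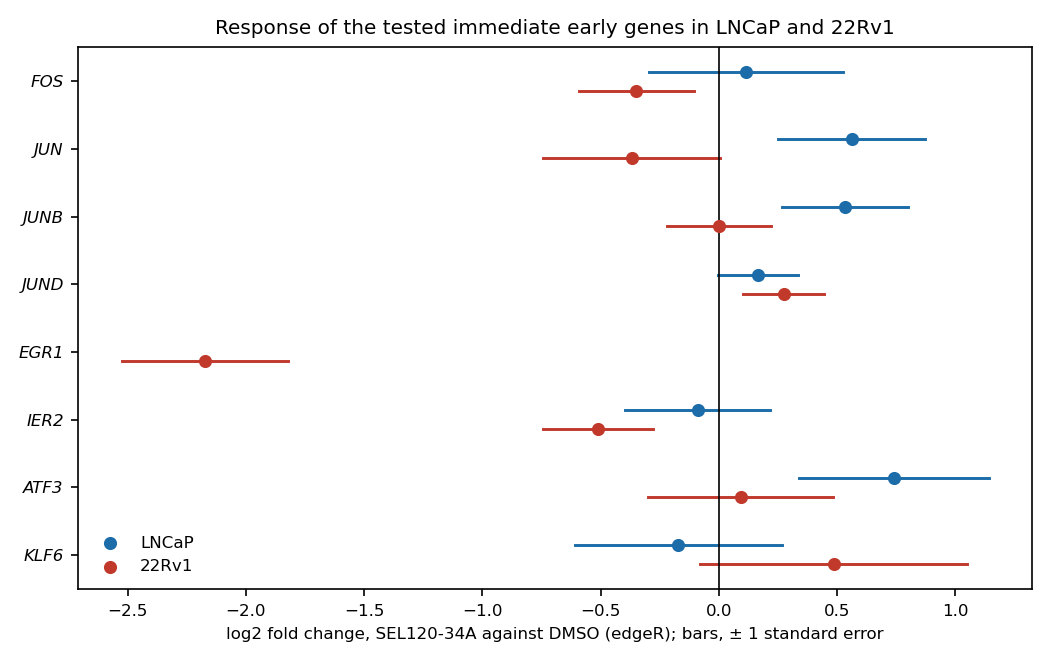
Points give the log2 fold change of SEL120-34A against DMSO in LNCaP (blue) and 22Rv1 (red) for the tested genes, with bars of 1 standard error. EGR1 in LNCaP has no point because its SEL120-34A libraries held at most 2 counts. EGR1 in 22Rv1 is at −2.17, and the other points lie between −0.51 and 0.74. The fall of EGR1 in 22Rv1 was known when the genes were chosen, so its place here is a description. DESeq2 and limma-trend did not call it.

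IER2 and IER3 are small immediate early response genes that share a name and not a family. IER2 (ENSG00000160888.7, chromosome 19, 13150411 to 13154911, plus strand, 2 exons) was at 57.8, 86.4 and 96.5 CPM in LNCaP DMSO and at 363, 204 and 204 CPM in 22Rv1 DMSO. The lines did not overlap, with a log2 fold change of −1.67 ± 0.24 (SE; edgeR, adjusted p = 1.82e-07). The PC3 DMSO library was at 329 CPM, within the range of 22Rv1. With SEL120-34A, IER2 was at 50.7, 46.1 and 110 CPM in LNCaP, a log2 fold change of −0.09 with a 95% interval from −0.71 to 0.53 (edgeR, adjusted p = 0.942). In 22Rv1 it was at 259, 124 and 131 CPM with SEL120-34A, a log2 fold change of −0.51 ± 0.23 (SE) that was not past the edgeR threshold. Replicate 1 was the highest of that arm and the only one above any DMSO library, and without it the log2 fold change was −0.96 and past the edgeR threshold. IER2 was lower in all 3 same-numbered pairs of 22Rv1, and with a replicate block within each line, chosen after seeing the data, its log2 fold change was −0.58 and also past the edgeR threshold. Over all 23 alternative settings the log2 fold change in 22Rv1 lay between −0.96 and −0.23, and 21 of them gave no call. In PC3, IER2 had 302 and 226 counts, a ratio of 1.21 (exact 95% interval 1.01 to 1.44, counting error only).

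IER3 (ENSG00000137331.12, chromosome 6, 30743199 to 30744548, minus strand, 2 exons), which encodes a survival factor, was a gene of PC3 in these data. PC3 had 252 counts with DMSO and 163 with SEL120-34A, at 274 and 286 CPM. The 12 libraries of LNCaP and 22Rv1 held between 0 and 4 counts each. On summed counts, PC3 DMSO was 64.5 times as high as 22Rv1 DMSO (exact 95% interval 32.3 to 151, counting error only, 1 library of PC3). The SEL120-34A to DMSO ratio in PC3 was 1.04 (0.850 to 1.27).

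ATF3 and KLF6 had the highest fitted replicate spread of the 8 tested genes, with biological coefficients of variation of 29.1% and 29.6%. ATF3 (ENSG00000162772.17, chromosome 1, 212565334 to 212620777, plus strand, 4 exons), a stress-induced factor of the ATF family, was at 22.5, 20.9 and 83.9 CPM in LNCaP DMSO and 104, 61.8 and 50.1 CPM in 22Rv1 DMSO. The log2 fold change of −0.60 did not pass the threshold (edgeR, adjusted p = 0.183). Replicate 3 of LNCaP DMSO held 60 of the 84 ATF3 counts of its arm, and without it the log2 fold change was −1.65 (edgeR, adjusted p = 0.00181). The LNCaP SEL120-34A libraries were at 23.4, 35.2 and 141 CPM, with replicate 3 again the highest. Their log2 fold change was 0.74 with a 95% interval from −0.07 to 1.55 (edgeR, adjusted p = 0.425), and 1.79 without DMSO replicate 3 (edgeR, adjusted p = 0.0257). Over the 22 alternative settings that gave a value it ranged from −0.55 to 1.79, with 1 change of sign, and 21 gave no call. In 22Rv1, ATF3 was at 88.2, 60.1 and 68.5 CPM with SEL120-34A, a log2 fold change of 0.09 ± 0.39 (SE). PC3 had 81 and 23 counts, a ratio of 0.457 (exact 95% interval 0.275 to 0.734, counting error only).

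KLF6 (ENSG00000067082.15, chromosome 10, 3775996 to 3785281, minus strand, 4 exons), a zinc finger factor studied as a tumor suppressor in the prostate, was at 22.5, 13.1 and 65.7 CPM in LNCaP DMSO and at 23.6, 18.7 and 10.7 CPM in 22Rv1 DMSO. It was called higher in LNCaP, by 1.13 ± 0.44 (SE) on the log2 scale (edgeR, adjusted p = 0.033), but the lines overlapped. Without LNCaP DMSO replicate 3 the log2 fold change was 0.18 (edgeR, adjusted p = 0.809), and without 22Rv1 DMSO replicate 3 it was 0.79 (edgeR, adjusted p = 0.196). The call was also lost with library totals without TMM (edgeR, 0.92, adjusted p = 0.103), with the DESeq2 Wald test (0.98, adjusted p = 0.352) and with limma-trend (0.59, adjusted p = 0.556). With SEL120-34A it was at 3.90, 29.8 and 50.7 CPM in LNCaP, with a 95% interval of the log2 fold change from −1.06 to 0.72 (edgeR, adjusted p = 0.920), and at 33.1, 25.8 and 11.4 CPM in 22Rv1. PC3 had 76 and 45 counts, and its DMSO library was above all 12 libraries of the other lines at 82.7 CPM.

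The spread between replicates was larger for these genes than for most. The gene-wise biological coefficient of variation in the fit, the replicate spread beyond counting error, lay between 14.03% for JUND and 29.6% for KLF6, beside a median of 11.3% over all tested genes. All 8 were above that median, and the lowest, JUND, lay at the 79.9th percentile. The same library was high for many of them at once. In LNCaP, replicate 3 was the highest of its arm for 6 of 8 genes with DMSO and for 7 of 8 with SEL120-34A, where 30.9% and 37.3% of all tested genes were highest in it. In 22Rv1, replicate 1 was the highest for 7 of 8 in both arms, where 34.9% and 30.7% of all tested genes were.

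LNCaP replicate 3 was the deepest of the SEL120-34A arm, at 519928 counts, and had the lowest mitochondrial share of both LNCaP arms, 13.9% and 16.5%. 22Rv1 replicate 1 was the deepest of the SEL120-34A arm, at 368778 counts, and its mitochondrial share was the highest of the DMSO arm, 9.82%, and the middle of the SEL120-34A arm, 11.5%. Of 8 heat shock genes that rise with handling of cells, all 8 were tested. Between the lines without inhibitor 4 of 8 passed in edgeR, beside 49.0% of all tested genes, so this count was near that share. HSP90AA1, HSPA1A and HSPA1B were lower in LNCaP, as EGR1, FOS, IER2 and JUNB were, and BAG3 was higher. HSPA1B was at 81.1 ± 11.6 CPM (SD, n = 3) in LNCaP DMSO and 317 ± 38.8 CPM (SD, n = 3) in 22Rv1 DMSO, and its near-identical copy HSPA1A had 6 and 46 counts, so reads may be split between them. The mitochondrial share was also different, from 13.9% to 17.3% in LNCaP DMSO and from 7.60% to 9.82% in 22Rv1 DMSO. None of the heat shock genes passed the threshold with SEL120-34A in LNCaP (edgeR, and 0 at an unadjusted p under 0.05), and HSP90AA1 and HSPA8 were lower in 22Rv1, with log2 fold changes of −0.88 and −0.67. The part of these genes and of the mitochondrial share in the results above was not tested.

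EGR1 was also set against FOS within each library. In 22Rv1 DMSO there were 0.780, 0.832 and 0.650 EGR1 counts per FOS count. In 22Rv1 SEL120-34A there were 0.252, 0.0889 and 0.233. The arms did not overlap, with 0.754 ± 0.0938 (SD, n = 3) for DMSO and 0.191 ± 0.0891 (SD, n = 3) for SEL120-34A, beside CPM of 224 ± 90.7 (SD, n = 3) and 44.6 ± 38.2 (SD, n = 3). The same ratio for IER2 was 0.877 ± 0.0775 (SD, n = 3) with DMSO and 0.818 ± 0.223 (SD, n = 3) with SEL120-34A, and overlapped. For JUNB and JUND the ratios also overlapped. These ratios use the libraries that chose EGR1 and are a description.

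**Figure D3:**
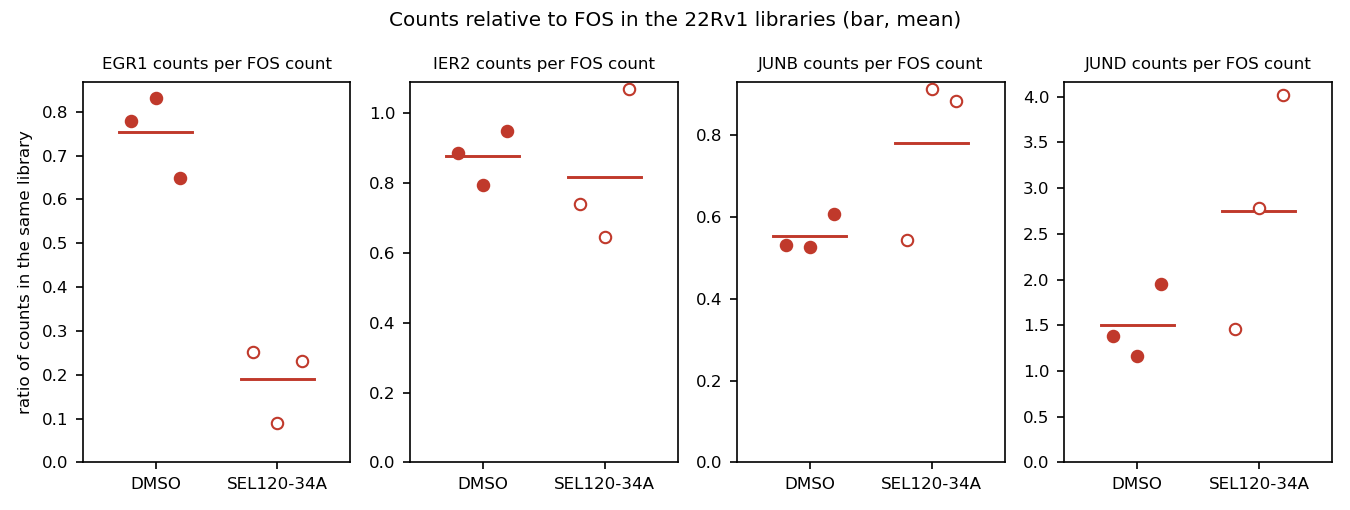
Counts of EGR1, IER2, JUNB and JUND per FOS count (vertical axis, a ratio within each library) in the 3 DMSO and 3 SEL120-34A libraries of 22Rv1, with a bar at the mean. The EGR1 ratio lay between 0.650 and 0.832 with DMSO and between 0.0889 and 0.252 with SEL120-34A, and the other 3 ratios overlapped between the arms. These libraries chose EGR1, so its ratio is a description.

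Other genes of the pathway were taken as 5 lists of 131 genes in all, of which 80 were tested. Between the lines without inhibitor, 46 of the 80 passed the edgeR threshold, 16 higher and 30 lower in LNCaP, beside 49.0% of all tested genes. Their median log2 fold change was −0.11. Among other rapidly induced transcription factors, 10 of 16 tested passed, 8 lower and 2 higher. ID1 was at 80.9 ± 44.5 CPM (SD, n = 3) in LNCaP and 442 ± 73.1 CPM (SD, n = 3) in 22Rv1, a log2 fold change of −2.41 (edgeR, adjusted p = 3.93e-13). IER5, IER5L, CSRNP1, CEBPD, KLF10, MAFG and MYC were lower as well, and KLF4 and TSC22D1 were higher. NR4A1, an orphan receptor gene induced with EGR1 in many cells, was at 22.6 ± 16.8 CPM (SD, n = 3) in LNCaP and 23.2 ± 9.79 CPM (SD, n = 3) in 22Rv1.

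Among rapidly induced genes with other products, 16 of 19 passed, 8 in each direction, beside 49.0% of all tested genes. Lower in LNCaP were the mRNA decay genes ZFP36 and ZFP36L2, the survival gene MCL1, and ARC, PLK3, PPP1R15A, SIK1 and TRIB1. Higher were BTG1, BTG2, CCN1, GADD45A, PHLDA1, PMAIP1, RHOB and VMP1. MCL1 had a log2 fold change of −1.87 ± 0.18 (SE; edgeR, adjusted p = 1.09e-11) and BTG1 of 1.59 ± 0.15 (SE; edgeR, adjusted p = 1.23e-11).

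Feedback regulators of MAP kinase signaling, which ERK activity itself induces, passed for 6 of 11 tested. Over all tested genes 49.0% passed, so this count was near that share. SPRY4 had 1 count in the 3 LNCaP DMSO libraries together and 93 in those of 22Rv1, a ratio of 0.0112 (exact 95% interval 0.000281 to 0.0640, counting error only). DUSP6, the phosphatase of ERK, had 1 and 39 counts, a ratio of 0.0267 (exact 95% interval 0.000659 to 0.158). SPRY2, SPRED2 and ERRFI1 were lower too, and SPRY1 was higher by 2.83 on the log2 scale (edgeR, adjusted p = 5.75e-10). DUSP1, a phosphatase gene that is itself immediate early, was at 104 ± 36.2 (SD, n = 3) and 74.1 ± 27.9 CPM (SD, n = 3) and did not pass (edgeR, adjusted p = 0.0511).

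Beside 49.0% of all tested genes, 8 of the 21 tested kinases and adaptors of the MAP kinase cascades passed. Among them BRAF, MAP2K7 and MAPKAPK2 were lower in LNCaP and HRAS, MAP2K6 and MAPKAPK3 higher. MAPK3, an ERK gene, had a log2 fold change of 0.02 with a 95% interval from −0.63 to 0.66 (edgeR, adjusted p = 0.972). Of 13 factors that act on immediate early promoters, 6 passed, which was also near the share of all tested genes. ATF1, NELFA, NELFB and NELFE were lower and CREB1 and CRTC3 higher. SRF had a log2 fold change of 0.10 with a 95% interval from −0.52 to 0.71 (edgeR, adjusted p = 0.811), and ELK1 of 0.13 (−0.34 to 0.60).

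**Figure D4:**
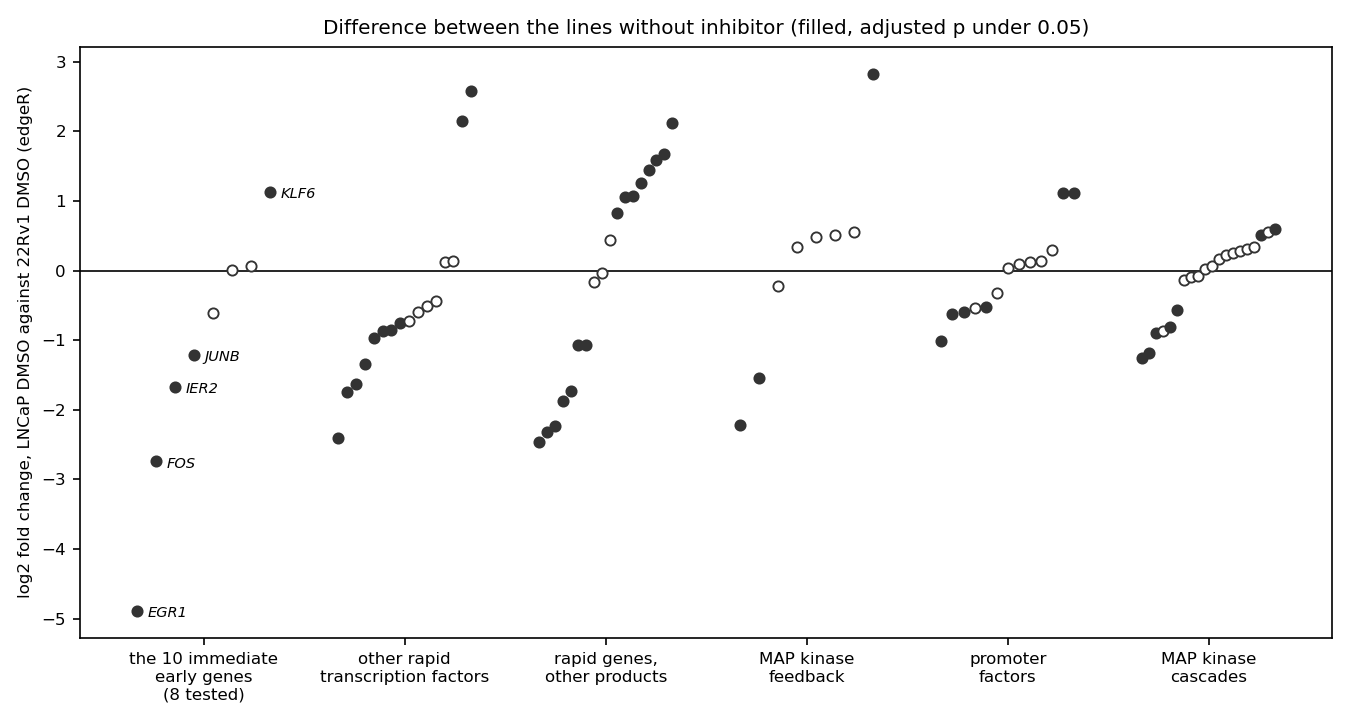
Each point is the log2 fold change of 1 tested gene, LNCaP DMSO against 22Rv1 DMSO (vertical axis), for the immediate early genes and the 5 companion lists, filled where the edgeR adjusted p was under 0.05. The 83 genes drawn leave out ARC, DUSP6, MAP2K6, SPRY2 and SPRY4, which had at most 3 counts in every library of 1 line. EGR1 at −4.89 and FOS at −2.74 lie at the lower end of the genes drawn. EGR1 is a description here, since its 22Rv1 DMSO libraries took part in its choice. Most of the genes left out were also low in LNCaP. Their log2 ratios of summed counts were −6.48 for SPRY4, −5.23 for DUSP6, −3.06 for ARC and −2.94 for SPRY2. MAP2K6 was higher in LNCaP.

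With SEL120-34A in LNCaP, 2 of the 80 companion genes passed, beside 2.77% of all tested genes, and both were higher. GADD45A, a stress-induced growth arrest gene, rose from 48.1 ± 10.6 to 119 ± 19.5 CPM (SD, n = 3 each; edgeR, adjusted p = 0.00117). BTG1, an antiproliferative gene, rose from 439 ± 48.1 to 759 ± 91.5 CPM (SD, n = 3 each; edgeR, adjusted p = 0.000112). In 22Rv1, 4 of 80 were past the threshold, beside 5.70% of all tested genes, and all 4 were higher: GADD45A, BTG1, PLK2 and IER5L. Limma-trend called neither gene in LNCaP and called BTG1 alone of the 4 in 22Rv1, where the calls of GADD45A and PLK2 were also lost when certain single libraries were left out. IER5L went from 21.6 ± 3.96 to 70.4 ± 19.4 CPM (SD, n = 3 each) in 22Rv1 and had at most 5 counts in any LNCaP library. None of the feedback regulators, promoter factors or cascade kinases was past the threshold in either line (edgeR, at an unadjusted p under 0.05 in LNCaP 1, 0 and 3 and in 22Rv1 2, 2 and 1 of them).

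Genes tied to EGR1 and ATF3 by function were taken as further lists. Of 9 known targets and corepressors of EGR1, 5 were tested, and only GDF15 was past the threshold with SEL120-34A, higher in both lines. Over all tested genes 2.77% were past it in LNCaP and 5.70% in 22Rv1. Whether the listed genes followed EGR1 was not tested. GDF15 had log2 fold changes of 0.87 in LNCaP (edgeR, adjusted p = 0.0103) and 2.26 in 22Rv1. Between the lines without inhibitor, 2 of the 5 were called, GDF15 and THBS1, both higher in LNCaP, beside 49.0% of all tested genes. Of 8 genes of the stress response that induces ATF3, 6 were tested. None passed in LNCaP (edgeR, 2 at an unadjusted p under 0.05), and HSPA5, the main chaperone of the endoplasmic reticulum, was lower in 22Rv1, at −0.94 on the log2 scale.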

How the data were processed

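BRB-seq libraries, 14 in all, were analysed. The authors aligned and counted reads with STARsolo on GRCh38.p13 with GENCODE release 43 and deposited raw counts per gene. The STARsolo version, strand setting and collapsing of molecular identifiers are not given in the sources used here. The authors also deposited log2 CPM for 9638 genes, used here only for the limma-trend alternative. Columns were matched to samples by their titles.

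Counts of the 12 LNCaP and 22Rv1 libraries were fitted with edgeR 4.0.16 in R 4.3.3 (TMM, low-count filter, 7086 genes, 4 group means, 8 residual degrees of freedom, common biological coefficient of variation 11.1%, quasi-likelihood F-test). P-values were adjusted by the Benjamini-Hochberg method across the tested genes, and the threshold was 0.05. CPM were scaled with TMM factors over all 14 libraries, and these factors (prior count of 2) return the log2 values as deposited. Arms at 3 or fewer counts in every library have no fitted fold change. PC3, with 1 library per arm, has exact count intervals only. The fit was tested on simulated data. Coordinates are from GENCODE release 44.

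The members and lists were chosen with earlier results of these data known. Named genes were all 10 members and, from each list, those past the threshold, or the 2 with the highest mean count. Some genes of the lists are not reported here. DESeq2 1.42.0 and limma 3.58.1 served as alternatives, beside other scalings, filters, sample sets and replicate blocks and the removal of each library.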

Additional observations from a re-analysis of the deposited data

Results flagged for a closer look

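For 3 genes of the lists used here, the response to SEL120-34A passed the edgeR test of the difference between LNCaP and 22Rv1, and none was an immediate early gene of the 10. BTG1 had a difference of −1.10 on the log2 scale (LNCaP minus 22Rv1), from a log2 fold change of 0.83 in LNCaP and one of 1.92 in 22Rv1. GDF15 had a difference of −1.39, with log2 fold changes of 0.87 and 2.26. HSP90AA1 had a difference of 0.78, with levels of 550 ± 33.4 and 498 ± 60.7 CPM (SD, n = 3 each) in LNCaP and 785 ± 156 and 419 ± 57.4 CPM (SD, n = 3 each) in 22Rv1, DMSO first. Groups of 3 libraries were too small for a test of single outlying samples.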

How the results depend on the processing

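Of the immediate early genes, 0 were called with SEL120-34A in LNCaP under every setting, except that 1, ATF3, was called without LNCaP DMSO replicate 3 (range 0 to 1 over the libraries left out). In 22Rv1 the count of 1 became 0 with at least 10 counts in every library, where EGR1 was not tested, 0 with the DESeq2 Wald test and 0 with limma-trend, and was 1 to 2 with a library left out. The difference of responses stayed at 0. Between the lines without inhibitor the count of 5 became 2 with at least 10 counts in every library, where FOS, EGR1 and KLF6 were not tested, and was 4 to 5 with a library left out. DESeq2 and limma-trend did not call KLF6 there. Apart from fewer genes tested, the cause was not tested.

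For the companion genes in LNCaP, 2 calls became 4 without the filter, 1 with at least 10 counts in every library and 0 with limma-trend, and 2 to 5 with a library left out. In 22Rv1, 4 calls became 2 with at least 10 counts, 1 with the DESeq2 Wald test, which gave an adjusted p for only 23 of the 80, and 1 with limma-trend, and 2 to 5 with a library left out. The difference of responses went from 1 to 0 with limma-trend, and to 1 to 2 with a library left out. Between the lines, 46 became 13 with at least 10 counts and 30 with all libraries thinned to 246063 counts, and 39 to 52 with a library left out.

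The labels number the replicates in both lines, but same-numbered DMSO and SEL120-34A libraries did not deviate together over all tested genes (correlations from −0.05 to 0.12), and 3 of 6 correlated best with their own number, so the numbers were not taken as pairs. The 8 immediate early genes tested differed from that, since the same number was often the highest of both arms. With the replicate block, the members called were 0 in LNCaP, 1 in 22Rv1, 0 for the difference and 5 between the lines, and the companion genes 4, 6, 2 and 48. A replicate block within each line, chosen after seeing the data, gave 0, 2 (EGR1 and IER2) and 0 members and 5, 7 and 2 companion genes. Scaling by library totals without TMM put the median log2 fold change of all genes at −0.08 in LNCaP, −0.14 in 22Rv1 and −0.24 between the lines, and the only call of a member it changed was that of KLF6.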

Other observations

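FOSL1, a FOS family gene outside the 10, had 597 counts in PC3 DMSO and 3 and 5 counts in the 3 DMSO libraries of LNCaP and of 22Rv1 together. On summed counts 22Rv1 DMSO was 0.00409 times as high as PC3 DMSO (exact 95% interval 0.00132 to 0.00959, counting error only). FOS itself was lower in the PC3 DMSO library than in 22Rv1, at 0.0429 times the level (exact 95% interval 0.0213 to 0.0773). EGR2 had 0 counts in all 3 LNCaP DMSO libraries, 1 to 2 in each of 22Rv1 DMSO and 5 in PC3 DMSO, at or near the floor throughout.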
